A study of Mus musculus with 6 samples.

Results

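Thrombospondins, tenascins and related matricellular proteins are described here by 10 genes, taken from the count table by symbol: the thrombospondins *Thbs1*, *Thbs2*, *Thbs3* and *Thbs4*, the tenascins *Tnc* and *Tnxb*, periostin (*Postn*), *Sparc*, osteopontin (*Spp1*) and fibronectin (*Fn1*). All 10 were found among the 17092 genes of the table, and all 10 were among the 13075 genes with enough counts to be tested. MEFs, the fibroblasts that grow out of dissociated mouse embryos, gave the RNA for 3 libraries of WT and 3 of *Aff3ir-ORF2-/-* genotype, the latter called knockout below. The knockout is global and removes the ORF2 product of *Aff3ir*, a gene nested within *Aff3*. The labels give no other allele and no treatment for either genotype, and the strain, the age and sex of the embryos, and whether the libraries of a genotype came from separate embryos or cultures were not given for these libraries. The p-values below therefore measure the spread between libraries, which may be technical.

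Matricellular proteins are secreted into the extracellular matrix, where they tune how cells attach to it, signal from it and remodel it, rather than bearing load themselves. They act through integrins and through receptors such as Cd36, Cd47 and Cd44, and several of them bind collagen or latent TGF-β. Fibronectin is a structural fibril of the matrix on which many of them are assembled, and fibroblasts in culture make it in large amounts.

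The libraries held 17435133 to 17726034 counts in WT and 18209421 to 18252330 in the knockout. *Aff3ir* itself was not analysed here, and the parent gene *Aff3* was at 406 to 418 counts in WT and 186 to 229 in the knockout. Across all tested genes the median coefficient of variation between libraries was 4.39% in WT and 7.68% in the knockout, so the knockout libraries were less alike. Fibroblast markers were abundant in both genotypes, with 14 of 14 listed genes tested and a summed level of 20131 to 20157 CPM (counts divided by library size, after scaling with the TMM factors of edgeR) in WT and 14351 to 18570 in the knockout. The sum was set mainly by *Col1a1*, *Col1a2* and *Vim*, while 2 of the 14 were called higher (*Lum* and *Pdgfrb*) and 0 lower, 3 rose and 3 fell by the adjusted p described below, and their median log2 fold change was 0.04. A list of 20 macrophage markers, of which 19 were tested, summed to 23.7 to 27.3 CPM in WT and 1419 to 2429 CPM in the knockout, and all 19 rose. *C1qa*, *C1qb* and *Aif1* were at 0 in every WT library. In bulk RNA, a change in the number of cells of one type cannot be told apart from a change in RNA per cell.

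The genotypes were compared by the quasi-likelihood test of edgeR over all 13075 genes, and every adjusted p below is from that test unless another tool is named, Benjamini-Hochberg adjusted over all of them. A gene was called where the adjusted p was under 0.05 and the change was at least 1.5-fold, the size the study used. Of the 10 genes, 2 were called higher (*Spp1* and *Tnxb*) and 1 lower (*Postn*) in knockout MEFs. Among all tested genes, 21.4% were called, 14.2% higher and 7.27% lower. By the adjusted p alone, 4 of the 10 rose (*Spp1*, *Tnxb*, *Fn1* and *Thbs1*) and 3 fell (*Postn*, *Tnc* and *Thbs3*), while *Thbs2*, *Thbs4* and *Sparc* did not pass. The adjusted p alone was passed by 56.8% of all tested genes, 29.3% higher and 27.5% lower. These shares of the 10 are thus not far from the background. The median log2 fold change was 0.11 over the 10 genes and 0.01 over all tested genes. The genotypes did not overlap for the 7 genes that passed, against 66.0% of the genes of the background.

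The sequences before the transcription starts of the 3 called genes and of *Tnc*, the most abundant of those that fell, are shown so that the changes below can be read beside the DNA they start from. They are the 250 bases before a RefSeq transcript start on GRCm38.p6. Such windows were found for 8 of the 10 genes, and where a gene had several, the one closest to most coding transcript starts of GENCODE M21 was taken. The deposited counts carry no coordinates, and the submitters' notes name another build, so these positions do not locate the counted reads. Each is written 5′ to 3′ in the direction of transcription, with matches on either strand in capitals to one of 4 short motifs: TGACTCA (AP-1), GCGGGGGCG or GCGTGGGCG (Egr), TGTGGTT (Runx) and TATAAA (core promoter element).
*Spp1*, chr5:104434861-104435110, + strand: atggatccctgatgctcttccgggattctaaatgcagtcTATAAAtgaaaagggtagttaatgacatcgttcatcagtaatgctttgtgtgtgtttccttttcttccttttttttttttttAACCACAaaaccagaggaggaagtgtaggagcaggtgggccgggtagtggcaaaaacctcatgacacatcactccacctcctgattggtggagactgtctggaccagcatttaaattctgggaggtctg
*Tnxb*, chr17:34670285-34670534, + strand: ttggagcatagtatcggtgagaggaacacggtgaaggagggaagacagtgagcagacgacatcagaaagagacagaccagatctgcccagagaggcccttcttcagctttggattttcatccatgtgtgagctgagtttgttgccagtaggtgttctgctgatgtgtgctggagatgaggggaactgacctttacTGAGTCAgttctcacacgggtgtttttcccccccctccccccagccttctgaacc
*Postn*, chr3:54360857-54361106, + strand: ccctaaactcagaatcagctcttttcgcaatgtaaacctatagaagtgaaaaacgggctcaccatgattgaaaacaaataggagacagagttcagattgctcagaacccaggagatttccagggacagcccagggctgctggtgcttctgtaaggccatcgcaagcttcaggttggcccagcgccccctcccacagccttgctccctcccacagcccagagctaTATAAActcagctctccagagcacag
*Tnc*, chr4:64047016-64047265, - strand: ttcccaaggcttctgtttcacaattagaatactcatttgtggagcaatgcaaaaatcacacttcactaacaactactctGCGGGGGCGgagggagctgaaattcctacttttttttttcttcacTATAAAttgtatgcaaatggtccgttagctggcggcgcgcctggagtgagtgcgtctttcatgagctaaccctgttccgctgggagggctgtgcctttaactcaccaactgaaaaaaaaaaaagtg
In these windows, *Spp1* held a Runx match at 129 to 123 bases before the start and a TATAAA at 211 to 206. *Tnxb* held an AP-1 match at 55 to 49 bases, *Postn* a TATAAA at 26 to 21, and *Tnc* an Egr match at 171 to 163 and a TATAAA at 126 to 121. Of the windows not shown, that of *Thbs2* also held a TATAAA match, at 126 to 121 bases. Those of *Thbs3*, *Thbs4* and *Sparc* held none of the 4 motifs. Among all 32851 promoter windows of the same length, 4.46% held the AP-1 letters, 3.06% the Egr letters, 4.40% the Runx letters and 12.4% the TATAAA letters. A match describes the sequence and is not a measured binding site.

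**Figure D1:**
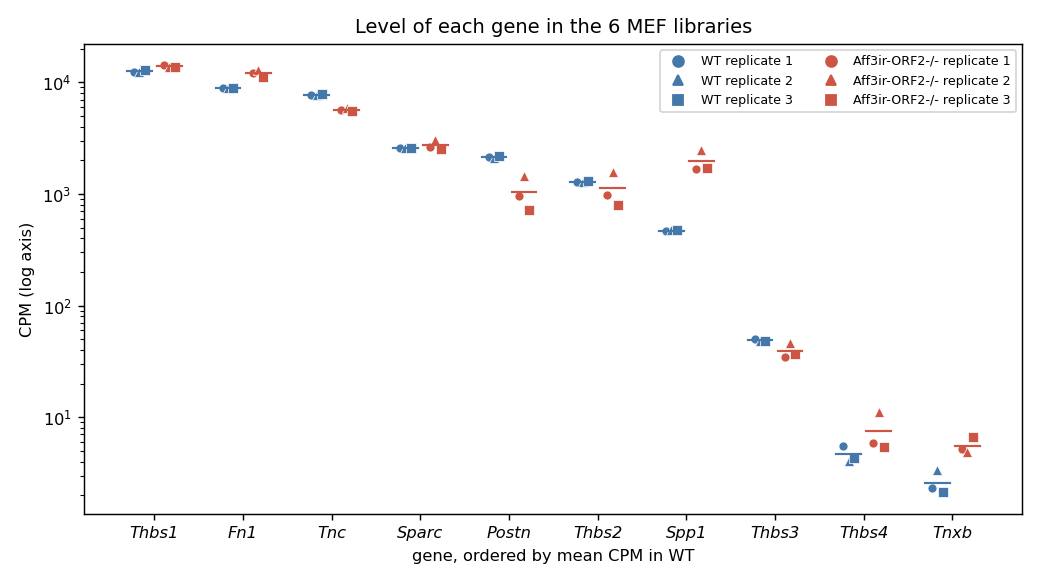
CPM of each of the 10 genes in every library (log axis, not corrected for length). Circles, triangles and squares are replicates 1, 2 and 3, blue for WT and red for knockout, and lines are means of 3. *Spp1* lies between 461 and 473 CPM in WT and between 1687 and 2490 in the knockout, while the levels of *Thbs1* differ little.

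To compare one gene with another, mean CPM was divided by the length of the longest coding GENCODE M21 transcript of each gene. On this scale, 7 of the 10 genes were among the first 256 of 16496 genes with such a length in every WT library. In WT, *Thbs1* had the highest level per length, 2149 ± 34.4 CPM per kilobase (SD, n = 3), followed by *Sparc* at 1119 ± 10.2, *Tnc* at 1092 ± 9.04 and *Fn1* at 1066 ± 5.75. The last 3 lay close together but their libraries did not overlap. *Postn* at 669 ± 9.09, *Spp1* at 311 ± 4.43 and *Thbs2* at 217 to 221 (its 3 libraries) came next, and *Thbs3*, *Thbs4* and *Tnxb* were far lower, at 15.3, 1.45 and 0.21 CPM per kilobase.

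In the knockout, the order changed behind *Thbs1*, which stayed first at 2374 ± 49.2 CPM per kilobase (SD, n = 3). *Fn1* at 1452 ± 109, *Spp1* at 1301 ± 304 and *Sparc* at 1182 ± 119 followed, but the libraries of *Fn1* overlapped those of *Spp1*, as did those of *Sparc*, so these neighbours do not differ beyond their spread. *Tnc* at 802 ± 28.3 and *Postn* at 324 ± 118 were now behind them. Among these 16496 genes, *Spp1* moved from places 158 to 164 in the WT libraries to places 8 to 20 in the knockout libraries, and *Postn* moved from places 56 to 60 down to 96 to 241. These orders depend on the length used, since the isoforms that the counts came from are not known.

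Of the 10 genes, *Spp1* had the largest log2 fold change. *Spp1* encodes osteopontin, a phosphoprotein of bone matrix that macrophages and other cells also secrete. In WT it had 7954, 8311 and 8264 counts, and knockout replicates 1 to 3 held 30740, 46417 and 31288. Every knockout library was above every WT library, with replicate 2 highest. In CPM, this was 469 ± 6.68 against 1960 ± 459 (SD, n = 3). On the log2 scale the change was 2.06 (SE 0.16, adjusted p = 1.12e-04), or 4.18-fold higher with a 95% interval of 3.18 to 5.51. Without knockout replicate 2, the log2 fold change was 1.85 and still passed (adjusted p = 2.57e-16, range 1.74e-24 to 0.00116 over the alternatives).

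The macrophage markers moved with *Spp1* between the genotypes, but their sum ordered the 3 knockout libraries differently. The summed markers were at 1419, 1968 and 2429 CPM in replicates 1, 2 and 3, highest in replicate 3, whereas *Spp1* was at 1687, 2490 and 1704 CPM, highest in replicate 2. Above the WT mean, the libraries thus held 0.87, 1.04 and 0.51 CPM of *Spp1* for each CPM of the summed markers. *Lyz2* made up much of the sum, with a mean of 1084 of 1939 CPM in the knockout. In CPM, *Adgre1*, *C1qa*, *C1qc* and *Cx3cr1* were highest in replicate 2, like *Spp1*, and all other listed markers in replicate 3. In WT, where the markers summed to 25.3 ± 1.83 CPM (SD, n = 3), *Spp1* was already at 469 CPM. The part of macrophages in the rise of *Spp1* was not tested. Of the osteoblast markers, 9 were listed, 3 were tested, and all 3 fell by the adjusted p, with 1 of them also past 1.5-fold, while *Sp7*, *Alpl*, *Ibsp* and *Dmp1* were too low to be tested. The summed osteoblast markers were at 57.8 to 61.2 CPM in WT and 37.1 to 42.5 CPM in the knockout. Most of this sum was *Runx2*, with means of 46.3 CPM in WT and 32.5 CPM in the knockout.

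**Figure D2:**
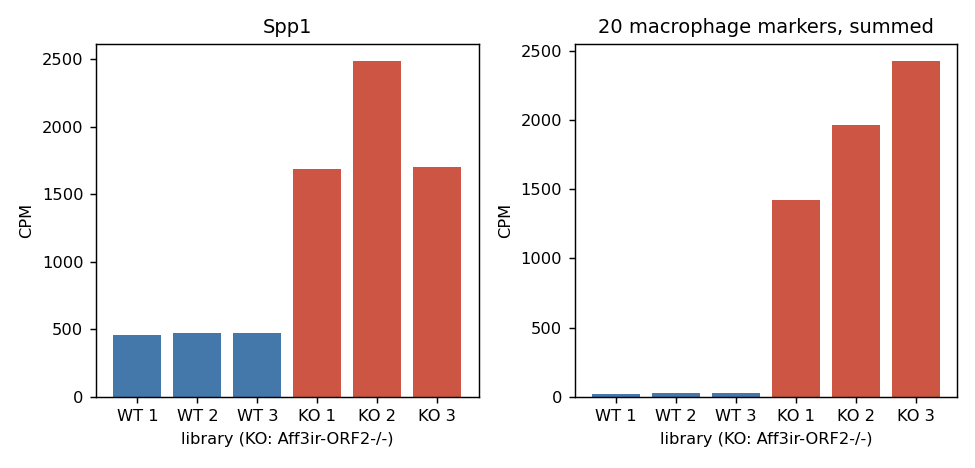
*Spp1* (left) and the sum of 20 macrophage markers (right) in CPM, one bar per library, WT in blue and knockout (KO) in red. Both are higher in every knockout library, *Spp1* is highest in replicate 2 at 2490 CPM, and the sum is highest in replicate 3 at 2429 CPM.

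*Fn1*, the fibronectin scaffold bound by integrin α5β1, rose by less. The gene had 152141, 155919 and 155829 counts in WT, against 220435, 241699 and 204746 in knockout replicates 1 to 3. The groups did not overlap, and replicate 2 was again the highest of its genotype. The levels were 8867 ± 47.8 and 12072 ± 907 CPM (SD, n = 3). On the log2 scale the change was 0.45 (SE 0.06, adjusted p = 2.38e-04). The fold was 1.36, under the 1.5-fold threshold, so *Fn1* was not called.

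*Postn* encodes periostin, a collagen-binding protein of the fasciclin family made by fibroblasts of tendon, periosteum and heart valves. It was counted 37046, 37175 and 37957 times in WT and 17310, 27129 and 13076 times in knockout replicates 1, 2 and 3. Each knockout library was below the WT libraries, but replicate 2 held 2.04 times the level of replicate 3 in CPM, while the WT libraries differed by 1.03-fold at most. The mean level was 2144 ± 29.1 CPM in WT and 1039 ± 380 in the knockout (SD, n = 3). On the log2 scale the change was -1.04 (SE 0.26, adjusted p = 0.0194). The fold against WT was 0.48, with a 95% interval of 0.31 to 0.77. Without knockout replicate 1, the log2 fold change was -0.99 and no longer passed (adjusted p = 0.0535, range 1.43e-04 to 0.0535 over the alternatives), and without replicate 2 it was -1.37.

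*Sparc*, which binds collagen and is abundant in matrix-forming cells, was at 44864, 44991 and 44800 counts in WT, against 47634, 56473 and 46177 in the knockout. In CPM, knockout replicate 3 was below the WT libraries and the other two were above. The log2 fold change was 0.08 (SE 0.07, adjusted p = 0.345), within the replicate error, and the 95% interval of the fold was 0.95 to 1.18. Its sign rested on replicate 2, without which it was -0.01 (adjusted p = 0.80, range 0.118 to 0.80).

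**Figure D3:**
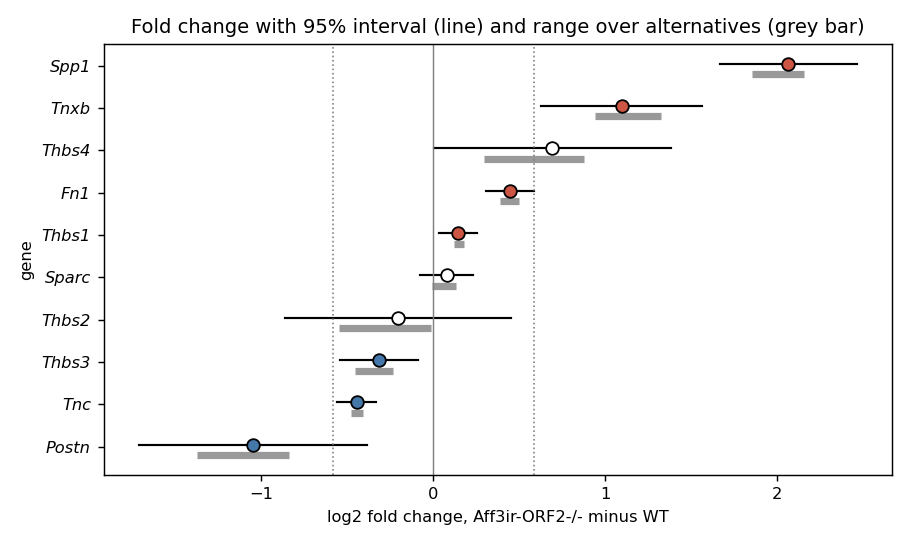
Log2 fold change of each of the 10 genes, knockout minus WT, with its 95% interval (black line) and the range over the processing alternatives (grey bar). Filled circles passed the adjusted p, red higher and blue lower, open circles did not, and dotted lines mark a 1.5-fold change. *Spp1*, at 2.06, and *Postn*, at -1.04, lie at the ends.

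The tenascins, large glycoproteins that surround cells during development and after injury, moved apart. *Tnc* encodes tenascin-C, an anti-adhesive protein of embryonic and wounded tissue. The gene had 132959, 136094 and 136875 counts in WT, against 103774, 109942 and 100900 in knockout replicates 1 to 3. The 3 knockout libraries lay close together and all below WT, at 5696 ± 201 against 7759 ± 64.3 CPM (SD, n = 3). The log2 fold change was -0.45 (SE 0.05, adjusted p = 5.99e-05), a fold of 0.73 against WT with a 95% interval of 0.68 to 0.79, short of the 1.5-fold threshold.

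*Tnxb* encodes tenascin-X, which is associated with collagen fibrils in adult connective tissue. It was among the least counted of the 10 genes, at 40, 59 and 37 counts in WT, against 94, 90 and 123 in the knockout. The groups did not overlap, and the highest WT library, replicate 2, lay well under the lowest knockout library. The level rose from 2.60 ± 0.66 to 5.56 ± 1.00 CPM (SD, n = 3). On the log2 scale the change was 1.10 (SE 0.21, adjusted p = 0.00157), or 2.14-fold with a 95% interval of 1.55 to 2.96. In RefSeq, *Tnxb* overlaps the pseudogene *Cyp21a2-ps* and a small nuclear RNA gene, neither of which was in the table, so reads could be shared between them. Since the use of strand in counting is not stated, this count is uncertain, as is that of *Thbs3*, *Tnc* and *Postn*, which each overlap a long noncoding RNA gene.

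Of the thrombospondins, calcium-binding proteins that cells secrete and clear again by endocytosis, *Thbs1* and *Thbs2* form trimers and restrain the growth of vessels, and Thbs1 also activates latent TGF-β. *Thbs1* had the most counts per length of the 10 genes in both genotypes. The gene had 215712, 218243 and 223635 counts in WT, against 258922, 256782 and 250926 in knockout replicates 1 to 3. The groups did not overlap, although the difference was small, 12569 ± 201 against 13884 ± 288 CPM (SD, n = 3). The log2 fold change was 0.14 (SE 0.05, adjusted p = 0.0322), or 1.10-fold with a 95% interval of 1.02 to 1.19. It did not pass without knockout replicate 1 (adjusted p = 0.0765) or without any one of the WT libraries (0.103 to 0.154), without the filter on low counts (0.0628) or with the replicate number as a block (0.102), with a range of 3.37e-04 to 0.154 over the alternatives.

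The knockout libraries of *Thbs2* lay on both sides of WT. It was counted 22053, 22709 and 22758 times in WT and 17742, 29624 and 14620 times in knockout replicates 1, 2 and 3. Replicate 2 was above all WT libraries, and replicates 1 and 3 were below them. The levels were 1291 ± 11.8 and 1120 ± 416 CPM (SD, n = 3). On the log2 scale the change was -0.20 (SE 0.26, adjusted p = 0.538), and the 95% interval of the fold ran from 0.55 to 1.37. Without replicate 2 it was -0.55 and passed (adjusted p = 0.00975, range 0.00975 to 0.965 over the alternatives).

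*Thbs3* and *Thbs4* form pentamers and are known from bone, tendon and muscle. *Thbs3* had 865, 851 and 844 counts in WT, against 631, 865 and 679 in knockout replicates 1 to 3. In CPM, which allows for the larger knockout libraries, all 3 lay below WT, at 34.6, 46.4 and 37.0 against 48.3 to 50.1. The log2 fold change was -0.31 (SE 0.10, adjusted p = 0.0246). It was lost without any one WT library (adjusted p 0.0613 to 0.0926), without knockout replicate 1 (0.0643) or 3 (0.0692), and with upper quartile scaling (0.0632), with a lowest value of 2.86e-06 over the alternatives.

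*Thbs4* was at 95, 71 and 76 counts in WT, against 108, 206 and 100 in knockout replicates 1, 2 and 3. In CPM, replicate 3 lay below the highest WT library, replicate 1 just above it and replicate 2 at 11.1 far above, against 4.04 to 5.51 in WT. The log2 fold change was 0.69 (SE 0.29, adjusted p = 0.0792), with a 95% interval of the fold of 1.00 to 2.60. It was 0.29 without replicate 2 (adjusted p = 0.134) and passed with DESeq2 (0.0273), with limma voom (0.0393) and without replicate 3 (0.0288), the range over the alternatives being 0.0273 to 0.206.

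**Figure D4:**
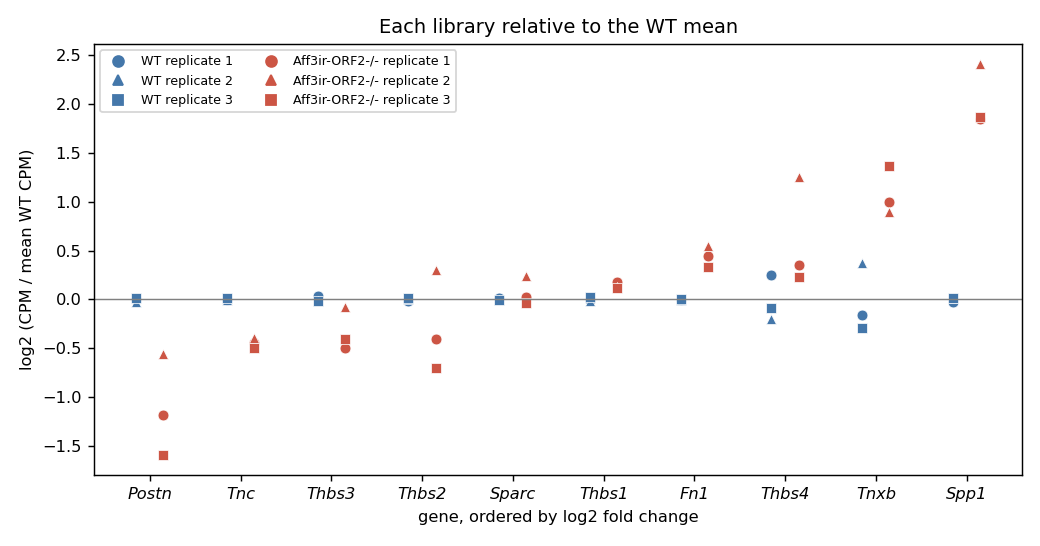
Log2 of each library's CPM over the mean WT CPM, for the 10 genes ordered by fold change. Blue symbols are WT, red are knockout, and triangles are replicate 2, which is the highest red symbol for 8 of the 10 genes. *Postn*, *Thbs2* and *Thbs4* spread by about 2-fold among the red symbols and *Tnc* and *Thbs1* hardly at all.

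The knockout libraries differed among themselves in a way that many of the genes shared. Knockout replicate 2 was the highest of its genotype for 8 of the 10 genes, all but *Thbs1* and *Tnxb*, and replicate 3 the lowest for 7. Over all tested genes, replicate 2 was the highest for 36.5% and replicate 3 the lowest for 29.8%. The highest knockout library exceeded the lowest by 2.04-fold for *Postn*, 2.03-fold for *Thbs4* and 1.48-fold for *Spp1*, but by 1.04-fold for *Thbs1* and 1.07-fold for *Tnc*. The coefficient of variation in the knockout was 37.2% for *Thbs2* and 36.5% for *Postn*, wider than for 96.0% and 95.9% of all tested genes, while that of *Thbs1* was 2.07%, wider than for 6.94%. In WT, the same coefficients were 0.92%, 1.36% and 1.60%. The fibroblast markers summed to 14959, 18570 and 14351 CPM in replicates 1, 2 and 3. Of the 14 markers, 11 were highest and 3, *Vim* among them, were lowest in replicate 2, and 6 had the full order of *Postn* and *Thbs2*. Their part in the spread of the 10 genes was not tested.

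Ratios of genes within one library do not depend on scaling, and those below were chosen after the values had been seen and were not tested. *Postn* and *Thbs2* had the same order among the knockout libraries, though not among those of WT. Their ratio in CPM was 1.64 to 1.68 in the WT libraries and 0.89 to 0.98 in the knockout libraries. The ratio of *Fn1* to *Tnc* was 1.14 to 1.15 in WT and 2.03 to 2.20 in the knockout. The ratio of *Spp1* to *Postn* was 0.21 to 0.22 in WT and 1.71 to 2.39 in the knockout. The ratio of *Fn1* to *Thbs1* was 0.70 to 0.71 in WT and 0.82 to 0.94 in the knockout. For *Fn1* to *Tnc* and *Spp1* to *Postn*, the separation of the genotypes adds nothing to the single genes. In each, a gene higher in every knockout library was divided by one lower in every knockout library. The ratio of *Thbs1* to *Thbs2* overlapped between the genotypes, at 9.61 to 9.83 in WT and 14.6, 8.67 and 17.2 in knockout replicates 1 to 3.

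Summed over the 10 genes, the level was 35728 ± 329 CPM in WT and 38544 ± 2597 in the knockout (SD, n = 3). The fold was 1.08, and the libraries of the genotypes overlapped (two-sided exact permutation test, p = 0.2, where 0.1 is the smallest that 3 libraries against 3 can give). The sum hides the opposite changes of its parts, since *Fn1* and *Spp1* were higher and *Tnc* and *Postn* lower.

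Other matricellular genes and members of the same protein families were read from the same fit. Of 23 listed genes, 22 were in the table and 17 were tested, of which 4 were called higher and 3 lower, and 6 rose and 4 fell by the adjusted p alone (median log2 fold change -0.02). The shares over all tested genes were 14.2% called higher and 7.27% called lower, and 29.3% and 27.5% by the adjusted p alone. *Comp*, the thrombospondin of cartilage and tendon, was at 10, 9 and 6 counts in WT, against 70, 68 and 56 in the knockout. Its log2 fold change was 2.86 (SE 0.25, adjusted p = 1.58e-05), the largest of the list. *Smoc1*, a calcium-binding relative of *Sparc*, rose by 2.77 (SE 0.28, adjusted p = 2.90e-04), whereas its close paralog *Smoc2* fell by 0.76 on the log2 scale (SE 0.05, adjusted p = 2.40e-06). *Spock3*, a proteoglycan of the same family, changed by 1.44 (adjusted p = 0.0108).

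*Tnn*, which encodes the tenascin of bone and tooth matrix, was at 1591, 1559 and 1613 counts in WT, against 406, 892 and 336 in knockout replicates 1, 2 and 3. The order of the knockout libraries was that of *Postn*, with replicate 2 highest and replicate 3 lowest. The log2 fold change was -1.62 (SE 0.36, adjusted p = 0.012), and -1.72 with the replicate number as a block, where it did not pass (adjusted p = 0.0608). Members of the CCN family differed among themselves. *Ccn1*, which serum induces in fibroblasts, as it does *Ccn2*, was at 24978, 24997 and 24624 counts in WT, against 11390, 9085 and 12581 in the knockout, and its log2 fold change was -1.25 (adjusted p = 9.97e-05), while *Ccn2* fell by 0.55 on the log2 scale (adjusted p = 0.0106), and *Ccn5* rose by 0.93 (adjusted p = 0.00139). *Ccn4*, at -0.02 (adjusted p = 0.942), and *Fstl1*, at 0.08 (adjusted p = 0.461), did not pass.

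**Figure D5:**
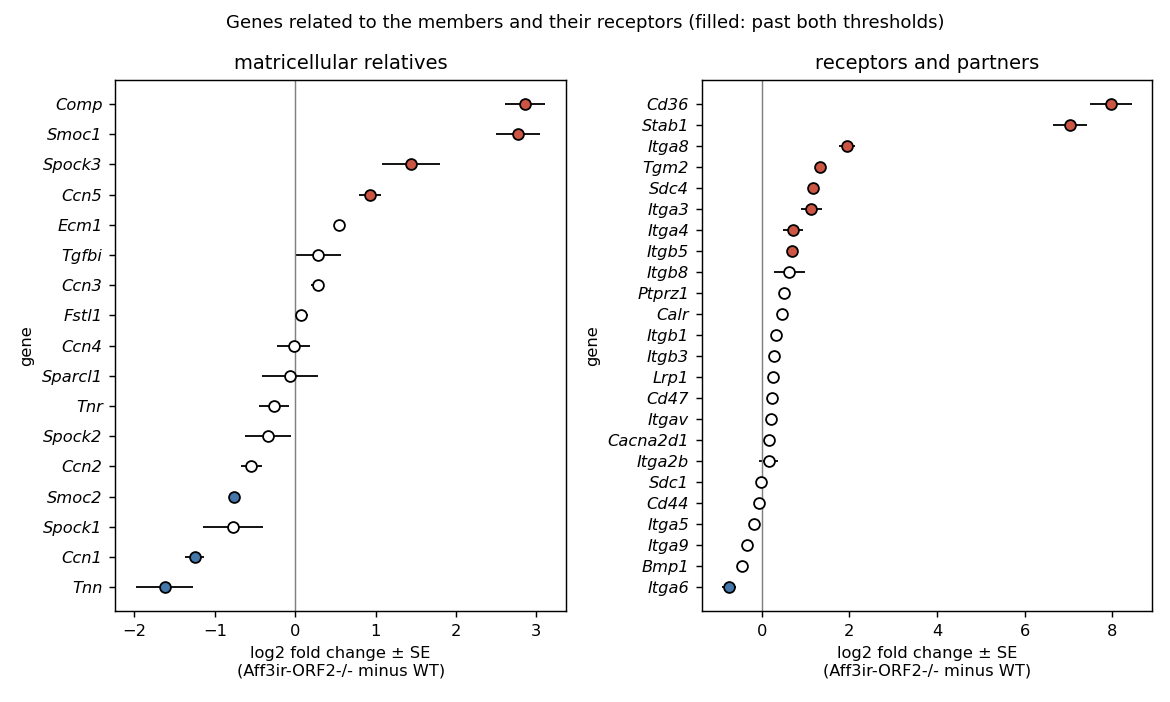
Log2 fold change ± SE of the tested genes of 2 lists, other matricellular genes (left) and receptors and binding partners (right). Filled circles passed the adjusted p and a 1.5-fold change, red higher and blue lower. *Cd36*, at 7.97, and *Stab1*, at 7.04, stand far above the other receptors.

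Receptors and binding partners of the 10 proteins were the other list. Of 25 genes, 24 were tested, of which 8 were called higher and 1 lower, with 14 up and 3 down by the adjusted p alone and a median log2 fold change of 0.31, beside the same 14.2% and 7.27% called and 29.3% and 27.5% past the adjusted p among all tested genes. The 8 became 6 to 9 when single libraries were left out, with 6 without knockout replicate 2. The largest rise was of *Cd36*, a scavenger receptor that binds Thbs1 and Thbs2, from 3, 5 and 1 counts in WT to 670, 686 and 1115 in the knockout. *Stab1*, the stabilin that takes up Sparc, rose from 7, 9 and 8 counts to 770, 1305 and 1313. The fitted log2 fold changes were 7.97 for *Cd36* (SE 0.48, adjusted p = 4.54e-05) and 7.04 for *Stab1* (SE 0.39, adjusted p = 3.15e-05), and rest on very few WT counts. Macrophages express both genes, and their markers rose over the same libraries as given above, so that a rise in the fibroblasts cannot be told apart from one in another cell type.

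The called integrin subunits changed by less. For these and the other genes below, a change in the fibroblasts likewise cannot be told apart from one in another cell type. *Itga8*, whose integrin binds fibronectin, tenascin-C and osteopontin, was at 11.2 ± 0.97 CPM in WT and 43.0 ± 10.1 in the knockout (SD, n = 3), and rose by 1.94 on the log2 scale (adjusted p = 1.29e-04). *Itga3* rose by 1.13 (adjusted p = 0.00692), and the syndecan *Sdc4*, a co-receptor for fibronectin, by 1.17 (adjusted p = 4.13e-05). *Tgm2*, the transglutaminase that crosslinks fibronectin and osteopontin, rose by 1.33 (adjusted p = 1.21e-05). *Itga4* and *Itgb5*, at 0.72 and 0.68, completed the 8 higher genes. *Itga4* (adjusted p = 0.0366) did not pass without the filter on low counts (0.0838), without any one WT library (0.0846 to 0.0882), or without knockout replicate 1 (0.082) or 2 (0.0615), and *Itgb5* was at 0.57, under 1.5-fold, without knockout replicate 2. *Itga6*, a laminin receptor subunit, was the one called lower, at -0.75 (adjusted p = 0.00794), or -0.58 and under 1.5-fold without knockout replicate 2. *Smoc2*, *Itga4*, *Itgb5* and *Itga6* are named after their values were seen, to complete these counts.

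The receptors with the most counts moved little. *Itgb1*, the subunit shared by most fibronectin receptors, changed by 0.33 (adjusted p = 5.14e-04), *Lrp1*, which clears thrombospondins, 0.27 (adjusted p = 0.00787), and *Calr*, its partner in thrombospondin signalling, 0.45 (adjusted p = 1.97e-05). *Cd44*, the osteopontin and hyaluronan receptor, was at -0.05 (adjusted p = 0.758). Without knockout replicate 2, *Cd44* was at 0.094 and passed (adjusted p = 0.0112).

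Markers of other matrix-producing cells moved in both directions beside these genes. Of 8 smooth muscle and myofibroblast markers, 6 were called higher and 0 lower, while 1 fell by the adjusted p alone and 1 did not pass. Their sum was 4748 to 4832 CPM in WT and 7740 to 8520 in the knockout. Of 6 tendon markers, 5 were tested, with 1 called higher (*Scx*) and 1 lower (*Egr1*). By the adjusted p alone, 2 of the 5 rose and 2 fell. Of 10 cartilage markers, 4 were tested, with 1 called higher and 2 lower. Of 10 endothelial markers, 6 were tested, with 3 called higher and 1 lower. The endothelial list summed to 11.4 to 12.1 CPM in WT and 18.9 to 23.6 CPM in the knockout. Of the remaining lists, skeletal muscle had only 2 of 8 genes tested, *Des* and *Acta1*, which were called higher. *Des* is also on the smooth muscle list, and *Myf5*, *Pax7* and *Actc1* were too low to be tested. Neural and glial had 4 of 7 tested genes called higher and 2 lower, adipocyte 1 of 3 higher and epithelial 0 of 2. None of the erythroid genes had enough counts. The part of any of these cell types in the changes of the 10 genes was not tested.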

How the data were processed

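RNA-seq of WT and *Aff3ir-ORF2-/-* MEFs, 3 libraries each, was read from one table of estimated counts per gene, which the authors deposited without normalization. By the study's methods, paired-end DNBSEQ reads were filtered with SOAPnuke. The submitters' processing notes name the genome build mm8. The aligner, counting tool, annotation and use of strand are not given in the sources used here.

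The estimated counts were rounded to whole numbers (10.6% to 11.3% per library needed it). Every count column was matched to a library. In edgeR 4.0.16, filterByExpr removed weakly counted genes (at a minimum count of 10 and a total of 15). Libraries were scaled by TMM and tested with the robust quasi-likelihood fit, without covariates. R 4.3.3, limma 3.58.1, DESeq2 1.42.0 and Python 3.11.15 with matplotlib 3.10.9 were used. The standard error (SE) was the log2 fold change over the square root of F, and the 95% intervals came from it. A count of 3 in each library was taken as the detection floor (0.172 CPM at most), which covers counting error only and which the 10 genes exceeded everywhere. Gene lengths were found for 96.5% of the table. The functions were tested on simulated data.

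The 10 genes, the lists and the tests were chosen with earlier results of these data known. The text names the 10 genes. From the lists of relatives and receptors, it names up to 6 called genes with the largest change and the 4 with the most counts. Cell type lists are given mainly as counts and sums, and the single markers named from them were picked by their values. Alternatives were other scalings, filters, tools and thresholds, the replicate number as a block and each library left out in turn.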

Additional observations from a re-analysis of the deposited data

How the results depend on the processing

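*Spp1*, *Tnxb*, *Tnc* and *Fn1* kept their direction and their side of the adjusted p threshold in every alternative run, with log2 fold changes of 1.85 to 2.16, 0.94 to 1.32, -0.48 to -0.41 and 0.39 to 0.50. With libraries left out in turn, *Thbs1* ranged from 0.12 to 0.15, *Thbs2* from -0.55 to -0.012, *Thbs3* from -0.45 to -0.24, *Thbs4* from 0.29 to 0.87, *Postn* from -1.37 to -0.84 and *Sparc* from -0.0091 to 0.13, the lowest of which is a reversal without *Aff3ir-ORF2-/-* replicate 2. The called members numbered 2 to 3 higher and 0 to 1 lower in these runs, and the called receptors and partners 6 to 9 higher and 0 to 1 lower, the 0 being without *Aff3ir-ORF2-/-* replicate 1 for the members and replicate 2 for the receptors. Without the filter on low counts, *Thbs1* was at 0.13 and did not pass. *Thbs3* was at -0.27 with upper quartile scaling and did not pass. *Thbs4* passed with DESeq2 at 0.69, with limma voom at 0.63 and by the unadjusted p at 0.69. With a 2-fold threshold, 1096 genes were higher and 317 lower, in place of 1851 and 951, and of the receptors and partners 0 were lower. The sign reversed for *Fstl1* without *Aff3ir-ORF2-/-* replicate 2 (-0.043). It reversed there for *Cd44* too (0.094, within -0.14 to 0.094 over the libraries left out), and *Cd44* then passed (adjusted p = 0.0112). For *Ccn4* it reversed with upper quartile (0.022) and total count scaling (0.011) and without *Aff3ir-ORF2-/-* replicate 3 (0.17). The cause of these moves was not tested, beyond the fewer libraries of the runs that leave one out. The fit without robust estimation was added after the data were seen and changed none of the calls of the 10 genes.

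The replicate number was also fitted as a block. Deviations from the genotype means of libraries with the same number correlated at 0.04, 0.04 and 0.01 across 13075 genes, too little to pair them, although each library correlated best with its own number. With the block, 1854 genes were higher and 954 lower, *Thbs1* at 0.14 no longer passed (adjusted p = 0.102), and *Tnn* was lost as given above. The other members kept their calls.

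Depth limits *Thbs4* and *Tnxb* more than the other members, since they had 37 to 206 counts in a library.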
